A study of Mus musculus with 6 samples.

Results

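Genes named as translation initiation factors were examined in regulatory T cells (Tregs) sorted from mouse mammary tumors. This family, with Eif1a named in the rule, was chosen with earlier results of these data known. Membership goes by symbol: every gene of the count table whose symbol begins with Eif1, Eif2, Eif3, Eif4, Eif5 or Eif6. The table holds 59 such genes among 23420, and 54 of them passed the filter on low counts, which kept 10352 genes in all. The rule also takes in 4 genes, Eif2c1 to Eif2c4, whose symbols are older names of the Argonautes. These proteins carry small RNAs in gene silencing and are not initiation factors, so counts are given with and without them where they matter. Without them the set has 55 genes, of which 51 were tested. The 55 still include 4 genes of kinases that act on eIF2 and 4 of inhibitors of eIF4E. Eif1ad and Eif4a3 encode related proteins, Eif4a3 a helicase of the exon junction complex. All of these are counted below among the initiation factor genes.

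All mice were BALB/c carrying Foxp3-GFP, so that cells expressing FoxP3, the transcription factor that defines Tregs, fluoresce. Every mouse received 10000 T11 cells, which grow into claudin-low tumors, a form of triple-negative breast cancer (TNBC). The untreated group received no antibody, and the treated group received the antibody J43 against PD-1, at 200 µg into the peritoneum, 2 times per week. PD-1 is an inhibitory receptor of T cells, carried by many tumor Tregs. Tumors were taken at 150 mm2 and GFP+ cells were sorted to above 90% purity. There are 3 untreated libraries, numbered 1, 2 and 3, and 3 treated ones, numbered 4, 5 and 6. The labels give no age for the mice. Whether each library comes from its own mouse or from a pool is not stated, and the p-values below therefore cover only variation among libraries, which can be technical.

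Initiation brings a ribosome, an initiator tRNA and an mRNA together at a start codon. eIF2 carries the initiator tRNA to the small ribosomal subunit, where eIF1, eIF1A, eIF3 and eIF5 assemble with it, and the eIF4 proteins bind the mRNA cap and unwind the leader so that the complex can scan. eIF5 then triggers GTP hydrolysis by eIF2, eIF5B helps the large subunit to join, and eIF2B recharges eIF2 for the next round. Signals converge on eIF2, through kinases that phosphorylate its alpha subunit, and on the cap-binding protein eIF4E, through the 4E-binding proteins that mTORC1 controls. T cells raise protein synthesis strongly when they are activated.

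Totals ran from 4766533 to 6686774 counts, and every untreated library was deeper than every anti-PD-1 library. Foxp3 was present in every library, at 437 to 562 CPM (the count relative to the TMM-scaled library total), and Cd4 at 365 to 497 CPM. The summed level of 8 Treg markers was 6620 to 7380 CPM untreated and 5630 to 6390 CPM after anti-PD-1. Of these 8, 5 lay lower after anti-PD-1, among them Ctla4 and Il2ra at an unadjusted p under 0.05. None lay higher at such a p. Every anti-PD-1 library lay above every untreated one in Foxp3 and Cd4, and below in Ctla4 and Ikzf2. The CD8 T cell markers summed to 11 to 31.1 and 18.7 to 51.1 CPM, and those of macrophages and monocytes to 5.72 to 9.28 and 8.04 to 14.2 CPM, with C1qa at 0. The neutrophil list summed to 11.4 to 20.2 CPM untreated and 1.52 to 4.33 CPM treated, nearly all of it Ltf, with S100a9 and Csf3r at 0. The endothelial list, where Cdh5 and Kdr were at 0 and only Pecam1 was measured, summed to 64.5 to 73.7 and 83.6 to 123 CPM. Of 10 proliferation genes, 9 lay lower after anti-PD-1, 4 of them at an unadjusted p under 0.05, and their sum was 1190 to 1790 CPM untreated and 787 to 1200 CPM treated. All 10 genes of a tissue-dissociation stress list lay higher, 7 of them at an unadjusted p under 0.05 and 1 with an adjusted p under 0.05. Over all tested genes 4.07% lay lower and 4.23% higher at such an unadjusted p. The sum of the stress list was 2860 to 3110 CPM untreated and 3820 to 4650 CPM treated. The part of these shifts in any value below was not tested. Untreated library 1 stood apart: over all tested genes its median absolute deviation from the mean of the 6 libraries was 0.374 (log2), against 0.213 to 0.27 in the others.

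No initiation factor gene passed the threshold between anti-PD-1 and untreated libraries in edgeR's quasi-likelihood test with Benjamini-Hochberg adjustment over the 10352 tested genes, where adjusted p-values of the 54 ran from 0.303 to 0.996. The background of that call is 0.029%, 3 genes of the whole table, none of them lower. At an unadjusted p under 0.05 there were 3 of the 54, Eif1a, Eif2a and Eif2s2, all lower and none higher. Over all tested genes 8.3% lay at such a p, 4.07% lower and 4.23% higher, so 3 of 54 is near the background share. In bulk RNA, fewer cells of a type and less RNA per cell cannot be told apart.

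Most differences in the set were small. Of the 54 log2 fold changes (anti-PD-1 minus untreated), 33 were below 0 and 21 above, where 49.9% of all tested genes were below 0. Their median was -0.06, with a range from -1.14 to 1.04, and the median of all tested genes was 0.00164. Without the Argonautes, 32 of 51 were below 0 and the median was -0.07. The 95% interval of the log2 fold change lay within 1 of 0 on both sides for 42 of the 54, against 49.2% of all tested genes. A change of 2-fold or more is thus outside the interval for these 42. Libraries of a group also scattered less in these genes: the median SD within groups was 0.296 (log2), against 0.386 over all tested genes. The set also lay at a higher level, with a median of 27.3 against 8.65 CPM per kb of exon. Neither the interval nor the scatter comparison was matched for level.

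The groups did not overlap for 7 of the 54, where 13.6% of all tested genes did not. In Eif1a, Eif2a, Eif3a, Eif4e3, Eif4ebp1 and Eif5b every anti-PD-1 library lay below every untreated one, a pattern of 6.44% of all tested genes. In Eif3g alone every anti-PD-1 library lay above, a pattern of 7.18%. The total is near the background, with more genes below and fewer above than in the table as a whole, and this split was not tested.

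**Figure D1:**
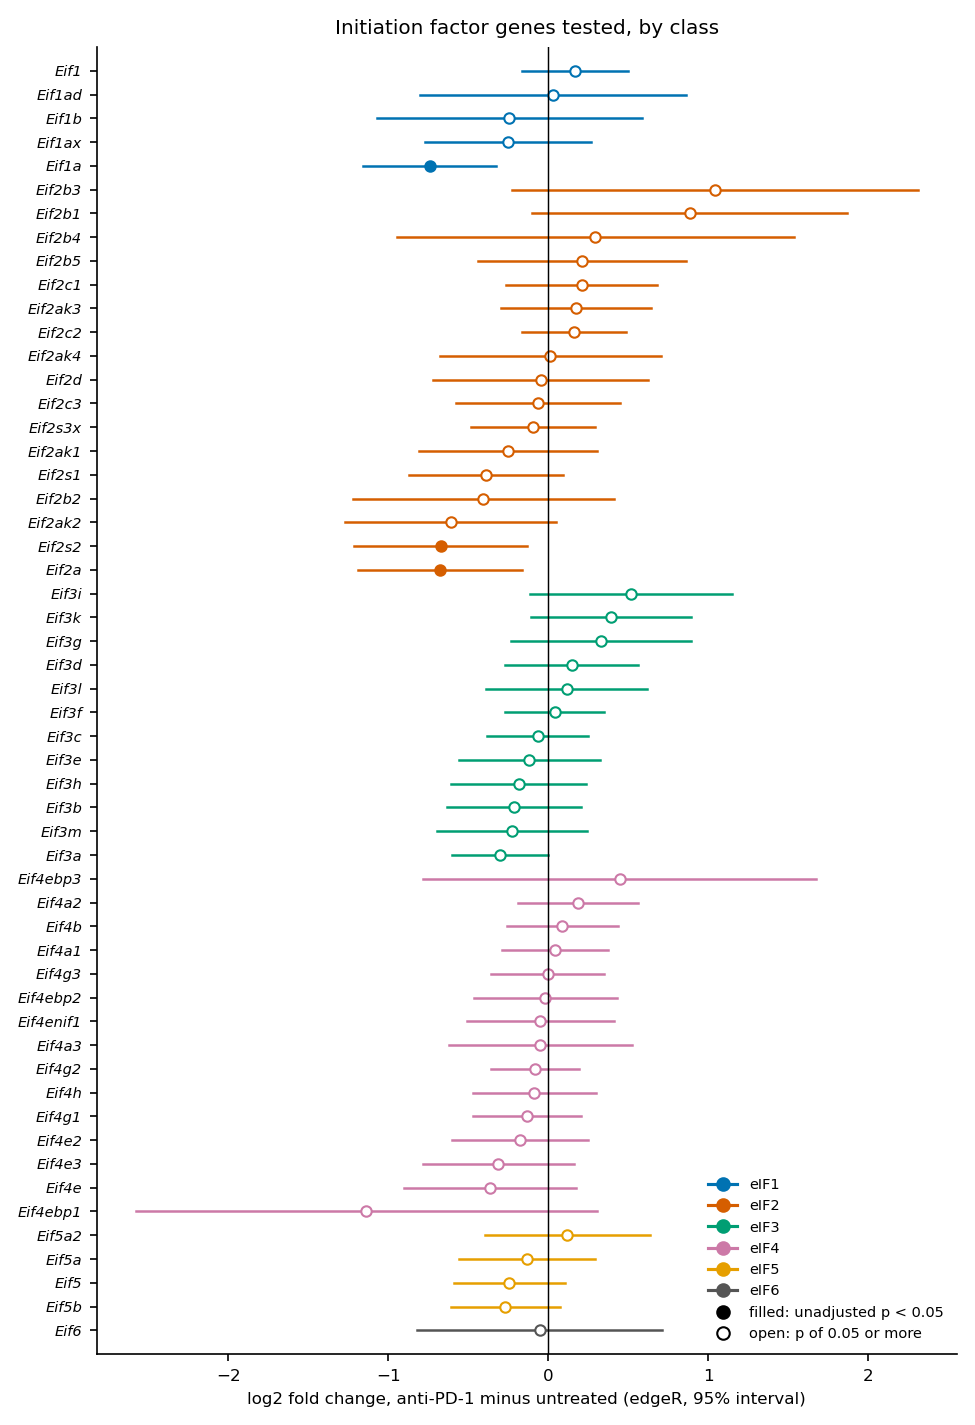
Log2 fold change (anti-PD-1 minus untreated, edgeR) of the 54 tested genes with its 95% interval, ordered within the classes eIF1 to eIF6; filled points have an unadjusted p under 0.05. The 3 filled points, Eif1a, Eif2a and Eif2s2, lie below 0, and the other intervals include 0.

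By class, the 5 eIF1 genes had a median log2 fold change of -0.24 with 3 below 0, and the 17 tested eIF2 genes a median of -0.05 with 9 below 0. The 12 tested eIF3 genes divided evenly, 6 above and 6 below 0, with a median of -0.01. Of the 15 tested eIF4 genes 11 were below 0, with a median of -0.05, and of the 4 eIF5 genes 3 were below 0, with a median of -0.19. The single eIF6 gene stood at -0.05. No test was made over a class.

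In TMM-scaled CPM, the whole set summed to 8014, 6871 and 7284 in untreated libraries 1, 2 and 3. In the treated libraries 4, 5 and 6 it summed to 7133, 6403 and 7318 CPM. These sums are not plain shares of the counts. The TMM factor was 0.934 in untreated library 1, which raises its scaled values, and 1.00 to 1.02 in the others. The totals also include Rn45s, a ribosomal RNA gene, at 21.35% (anti-PD-1 library 4) to 25.14% (anti-PD-1 library 6) of counts. The means were 7389 ± 579 and 6951 ± 484 CPM (SD, n = 3), and the groups overlap. The eIF4 genes made up the largest class sum, at 3099 ± 231 CPM untreated and 2995 ± 201 CPM treated, followed by eIF3 at 1990 ± 110 and 1848 ± 163 CPM. The eIF5 class summed to 940 ± 177 and 809 ± 82.8 CPM, the eIF2 class to 891 ± 85.6 and 846 ± 19.7 CPM, and the eIF1 class to 449 ± 56.2 and 433 ± 30.3 CPM. Each class sum differed between groups by less than its untreated SD, except that of eIF3.

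Levels of different genes are compared per kb of the exon length in the count table. Initiation factor genes were mostly well expressed: 44 of 54 stood above the median level of all tested genes, and the median member, at 27.3 CPM per kb, faced a median of 8.65 CPM per kb. The highest were Eif1 at 240 ± 34.2, Eif4g2 at 206 ± 16.9, Eif3f at 184 ± 14.3, Eif3h at 143 ± 36.7, Eif5 at 132 ± 29.4 and Eif3a at 120 ± 19.6 CPM per kb (SD over 6 libraries). The SD ranges of neighbours in this order overlap, while those of Eif1 and Eif3a do not. Of the 50-base stretches of Eif3h 26.2% occur in other genes, which makes its place less certain. The lowest tested were Eif2b3 at 1.46 ± 0.861, Eif2b4 at 2.79 ± 1.25, Eif2ak4 at 3.81 ± 0.472 and Eif4ebp1 at 4.05 ± 2.13 CPM per kb, whose SD ranges overlap in turn. The eIF2B exchange factor subunits, from 1.46 to 10.6 CPM per kb, thus all lay below the 18.9 CPM per kb of Eif2s1, the lowest of the tested subunits of their substrate eIF2. All 12 measured eIF3 subunits lay between 28.4 CPM per kb (Eif3i) and 184 CPM per kb (Eif3f).

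**Figure D2:**
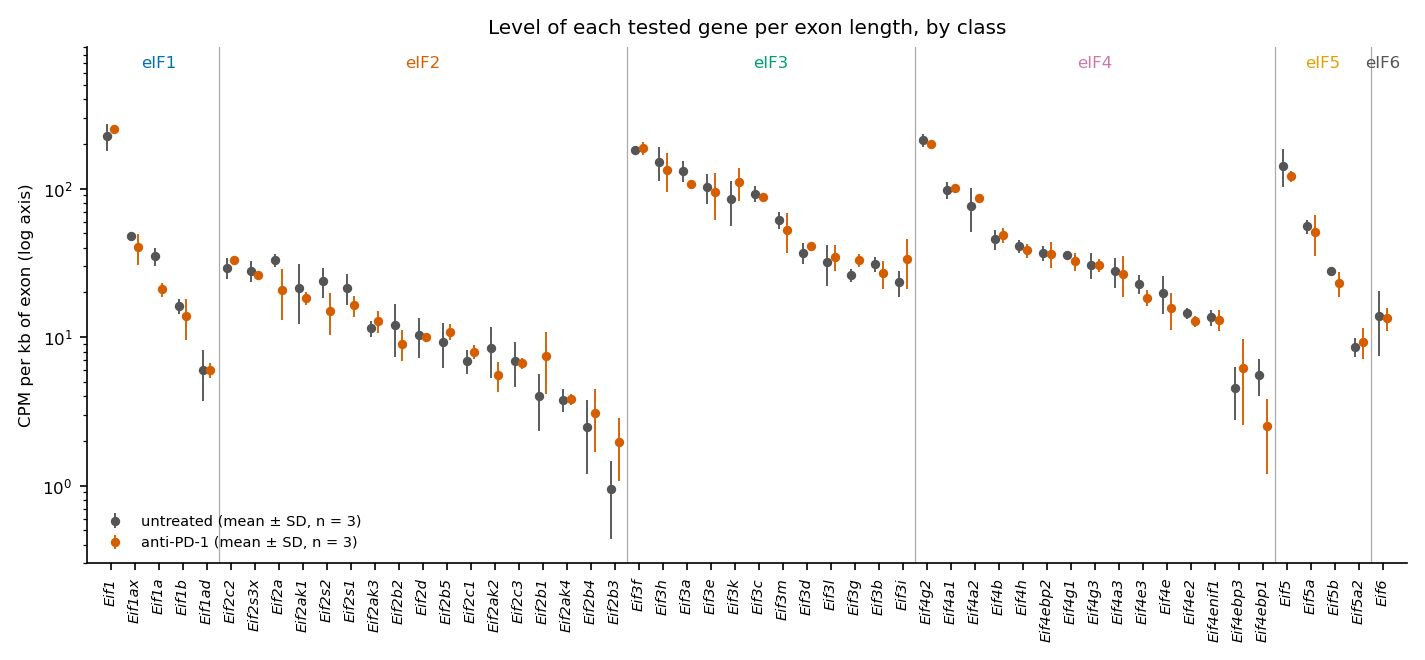
Level of each tested gene in CPM per kb of exon (log axis), as mean ± SD of 3 untreated (grey) and 3 anti-PD-1 (orange) libraries, ordered within each class. Eif1, Eif4g2 and Eif3f stand highest and the eIF2B subunit Eif2b3 lowest, and the bars of the groups overlap for most genes.

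Eif1a encodes a form of eIF1A, a small protein that sits in the ribosomal A site during scanning and helps choose the start codon. The gene lies on chromosome 18 of mm10 from 46597704 to 46610225, on the plus strand. Its level was 108.5, 109 and 85.3 CPM in the untreated libraries 1 to 3, and 66.5, 53.4 and 61.2 CPM in the treated libraries 4 to 6. The groups do not overlap, and the lowest untreated library stood 18.8 CPM above the highest treated one. The means were 101 ± 13.6 and 60.4 ± 6.61 CPM, and the log2 fold change was -0.74 ± 0.20 (SE), with a 95% interval from -1.16 to -0.32. Its unadjusted p of 0.00124 was the 41st smallest of the table, and edgeR's adjusted p was 0.303. DESeq2 gave -0.75 with an adjusted p of 0.0493, just inside the threshold, and called 34 genes in all. That is 0.328% of those tested and 0.785% of the 4331 genes to which DESeq2 gave an adjusted p, among them 41 of the 54 initiation factor genes. Of these 41, Eif1a alone was called, and over all alternatives tried its adjusted p ran from 0.0493 to 0.787.

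The close relative Eif1ax on chromosome X encodes the same kind of factor. It was measured at 44.4, 43.3 and 46.0 CPM untreated and at 45.5, 28.2 and 38.1 CPM treated, so only anti-PD-1 library 5 stood well below the rest. Its log2 fold change was -0.25 ± 0.25 (edgeR adjusted p = 0.828). No 50-base stretch of the Eif1a transcripts occurs in Eif1ax, and 2.62% occur in any other gene, so reads of the pair can be told apart. The ratio of Eif1a to Eif1ax per kb was 0.787, 0.812 and 0.596 untreated and 0.47, 0.61 and 0.516 treated, with a narrow overlap. The ratio's size depends on the short Eif1ax model of the count table, 0.926 kb.

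Eif1, which guards against initiation at wrong codons, was the highest of the class per kb. It was measured at 337, 228 and 257 CPM untreated and at 319, 291 and 314 CPM treated, groups that overlap through untreated library 1 alone. Its log2 fold change was 0.17 ± 0.16 (edgeR adjusted p = 0.824), and 0.34 without that library (unadjusted p = 0.0228, edgeR adjusted p = 0.561). Of its 50-base stretches 21.4% occur in other genes. Its paralog Eif1b was far lower: Eif1 exceeded it per kb 14.0 ± 2.4 times untreated and 19.8 ± 7.4 times treated. The eIF1A domain protein Eif1ad, related in sequence, differed little, at 14.7 ± 5.57 and 14.9 ± 1.78 CPM.

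**Figure D3:**
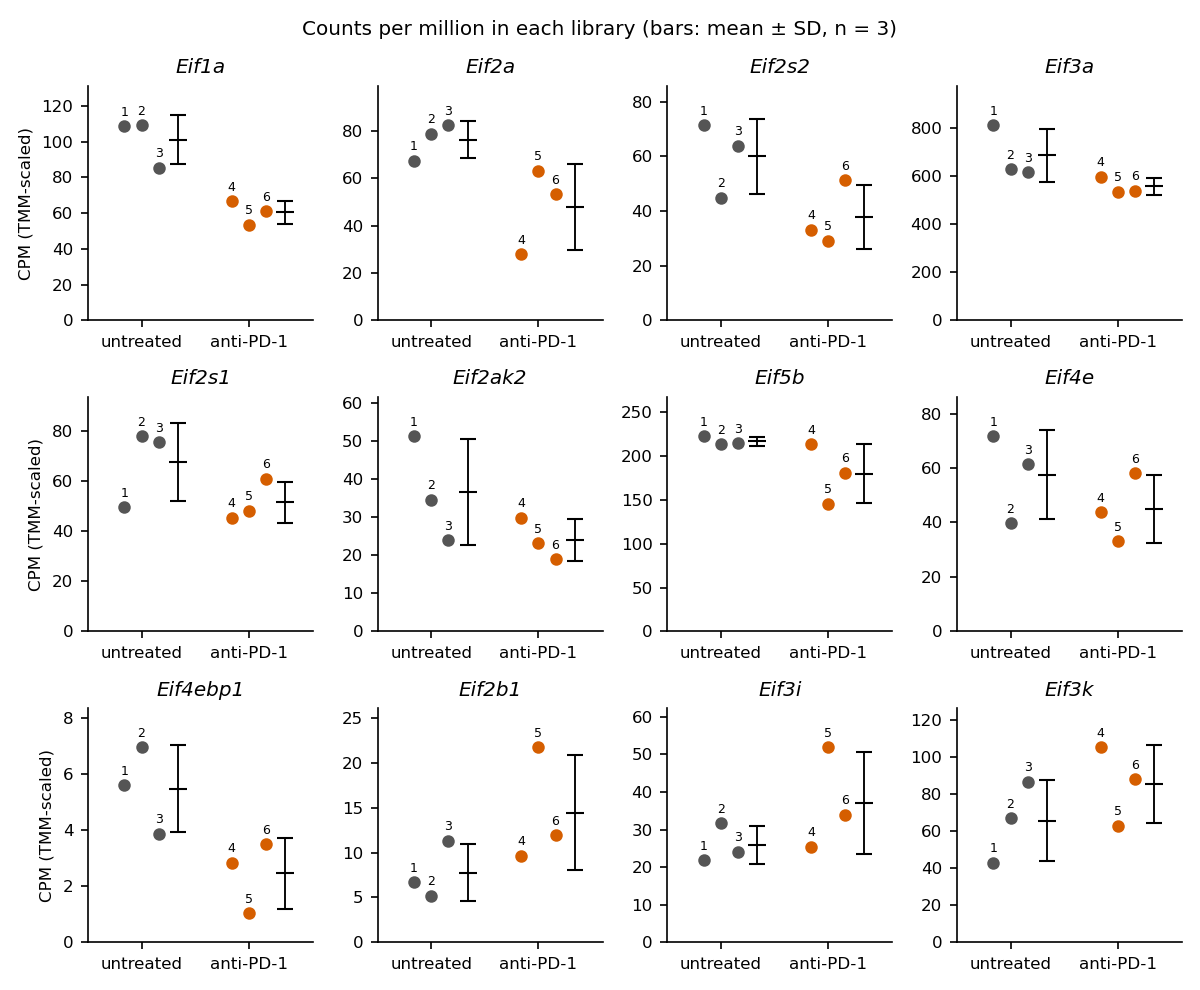
CPM in each numbered library for 12 genes, untreated (grey) and anti-PD-1 (orange), with mean ± SD (n = 3) beside the points; axes start at 0. Eif1a, Eif2a, Eif3a, Eif5b and Eif4ebp1 have no overlap between groups, while the other 7 genes do.

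Among the eIF2 subunits, all 3 that were measured lay below 0, with a median log2 fold change of -0.39, and the sum of the subunits was 229 ± 18.5 CPM untreated and 184 ± 24.7 CPM treated. Eif2s2, the beta subunit, which contacts eIF5 and eIF2B, was at 71.4, 44.9 and 63.9 CPM untreated and at 33.2, 29.2 and 51.3 CPM treated. Anti-PD-1 library 6 lay above untreated library 2, so the groups overlap. Its log2 fold change was -0.67 ± 0.26, with an interval from -1.21 to -0.14 (unadjusted p = 0.0163, edgeR adjusted p = 0.516). Of its 50-base stretches 21.9% also occur in Gm9892, so its count is uncertain by the way such reads were assigned. Eif2s2 lies on chromosome 2 from 154871410 to 154892906, on the minus strand.

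Eif2s1, the alpha subunit that the stress kinases phosphorylate, was at 49.6, 78.1 and 75.6 CPM untreated and at 45.5, 48.2 and 61.0 CPM treated. Untreated library 1 lay among the treated ones, and the log2 fold change was -0.39 ± 0.23 (edgeR adjusted p = 0.691). Without that library, Eif2s1 had an unadjusted p under 0.05. Eif2s3x, the X-linked gamma subunit that binds GTP and the initiator tRNA, differed least, at 117, 84.4 and 101 CPM and 94.4, 89.2 and 99.9 CPM, with a log2 fold change of -0.10 ± 0.19. Of its 50-base stretches 35.4% occur in other genes, chiefly Gm2223, so its count is uncertain. Its Y-linked partner Eif2s3y had no count in any library.

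Eif2a encodes a separate protein, not a subunit of eIF2, that can bring initiator tRNA to the ribosome without GTP. The gene lies on chromosome 3 from 58525821 to 58557501, on the plus strand. It was measured at 67.4, 78.8 and 82.5 CPM in the untreated libraries and at 27.9, 63.1 and 53.2 CPM in the treated libraries. All treated libraries were lower, with anti-PD-1 library 4 far below the other two. The log2 fold change was -0.67 ± 0.25, with an interval from -1.19 to -0.16 (unadjusted p = 0.0119, edgeR adjusted p = 0.481). Without anti-PD-1 library 4 it shrank to -0.39 (unadjusted p = 0.122). Eif2d, which also works with initiator tRNA outside eIF2, stood at 23.6 ± 7.04 and 22.9 ± 0.841 CPM, giving a log2 fold change of -0.05 ± 0.32.

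The 4 eIF2 alpha kinases, each answering another stress, did not move together: 2 were above 0 and 2 below. Eif2ak2, which encodes PKR, the kinase of double-stranded RNA, was at 51.4, 34.7 and 24.0 CPM untreated and at 30.0, 23.2 and 19.0 CPM treated. These ranges overlap, and the log2 fold change was -0.61 ± 0.32 (edgeR adjusted p = 0.637). Eif2ak1 (heme), Eif2ak3 (PERK, unfolded proteins) and Eif2ak4 (GCN2, lack of amino acids) had log2 fold changes of -0.25 ± 0.27, 0.17 ± 0.23 and 0.01 ± 0.33.

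The 5 subunits of eIF2B, the exchange factor that the kinases ultimately inhibit, were above 0 in 4 of 5. Their median log2 fold change was 0.29 and their sum was 59.7 ± 8.64 CPM untreated and 70.9 ± 3.06 CPM treated. Eif2b1 was at 6.72, 5.18 and 11.3 CPM untreated and at 9.67, 21.7 and 11.9 CPM treated, highest in anti-PD-1 library 5. Its log2 fold change was 0.88 ± 0.47 (edgeR adjusted p = 0.651). Eif2b3 was at 4.16, 1.61 and 5.73 CPM and 11.4, 4.14 and 8.24 CPM, with a log2 fold change of 1.04 ± 0.61 (edgeR adjusted p = 0.686). Both overlap between groups, and both are low genes with intervals from -0.10 to 1.86 and from -0.23 to 2.31. Eif2b2, the exception, stood at -0.41 ± 0.39. A difference between eIF2 and eIF2B genes was not tested.

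Among the Argonautes carried along by their old symbols, Eif2c2 (Ago2, the slicing Argonaute) had the highest level per kb of the eIF2-named genes. It was at 277, 230 and 201 CPM untreated and at 282, 256 and 255 CPM treated, with a log2 fold change of 0.16 ± 0.16 (edgeR adjusted p = 0.826). Eif2c4 had 18 counts in untreated library 2 and 3 counts in anti-PD-1 library 6 and was not tested.

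The eIF3 complex, the largest factor and the platform on which the others assemble, is measured by 14 genes, of which 12 had counts. Eif3a, its largest scaffold subunit, came closest to the unadjusted threshold, at 811, 629 and 615 CPM untreated and 596, 534 and 538 CPM treated. All treated libraries lay below all untreated ones, by a margin of 19 CPM, and untreated library 1 was far above the rest. The log2 fold change was -0.30 ± 0.15 (unadjusted p = 0.0503, edgeR adjusted p = 0.597), and without untreated library 1 it was -0.16 (unadjusted p = 0.204). Eif3a lies on chromosome 19 from 60761116 to 60790693, on the minus strand.

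Among the subunits above 0, Eif3i, a small propeller subunit, was at 21.9, 31.6 and 24.1 CPM untreated and at 25.4, 52.0 and 34 CPM treated (log2 fold change 0.52 ± 0.31, edgeR adjusted p = 0.686). Eif3k, a subunit at the edge of the core, was at 42.9, 67.0 and 86.5 CPM and 105, 62.9 and 87.8 CPM (0.39 ± 0.24, edgeR adjusted p = 0.707). In both genes the groups overlap, Eif3i being highest in anti-PD-1 library 5 and Eif3k lowest in untreated library 1. Eif3g, picked here because its groups do not overlap, was at 26.6, 31.1 and 26.1 CPM untreated and at 31.3, 37.5 and 36.7 CPM treated, a log2 fold change of 0.33 ± 0.27.

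Eif3f, the highest subunit per kb, hardly differed: 288, 254 and 279 CPM untreated and 309, 252 and 283 CPM treated, a log2 fold change of 0.04 ± 0.15 with an interval from -0.27 to 0.35. The remaining subunits, Eif3b, Eif3c, Eif3d, Eif3e, Eif3h, Eif3l and Eif3m, lay between -0.23 and 0.15. Eif3j1 and Eif3j2, 2 copies of the loosely bound j subunit, had no count in any library. In the table they overlap on chromosome 2, from 122028623 to 122053629 and from 122028583 to 122053631, and 90.8% of the 50-base stretches of Eif3j2 occur in Eif3j1. How reads that fit both genes were counted was not tested, so these zeros do not measure the level of the pair.

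Of the 4 cap-binding protein genes 3 were tested, none at an unadjusted p under 0.05. Their log2 fold changes ran from -0.36 to -0.18, and their sum was 187 ± 14.9 CPM untreated and 154.5 ± 23.4 CPM treated. Eif4e, whose protein binds the mRNA cap and limits cap-dependent translation, was at 71.7, 39.7 and 61.4 CPM untreated and at 43.8, 33.1 and 58.1 CPM treated. Its groups overlap widely, and the log2 fold change was -0.36 ± 0.26 (edgeR adjusted p = 0.747). Eif4e3, an atypical relative, was at 51.9, 54.0 and 67.1 CPM and 48.7, 39.7 and 50.7 CPM, without overlap but by a margin of 1.18 CPM (-0.31 ± 0.23, edgeR adjusted p = 0.750). Eif4e1b, a form known from oocytes, had no count.

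The inhibitors of eIF4E include the 4E-binding proteins, which mTORC1 phosphorylates to free eIF4E, and Eif4enif1, which carries eIF4E into the nucleus. Eif4ebp1 was low, at 5.6, 6.97 and 3.88 CPM untreated and 2.84, 1.04 and 3.5 CPM treated. The groups are separated by 0.376 CPM, and the log2 fold change of -1.14 ± 0.70 was the most negative of the set but imprecise, with an interval from -2.58 to 0.31 (edgeR adjusted p = 0.704). Eif4ebp2 was the main form, exceeding Eif4ebp1 per kb 7.16 ± 3.05 times untreated and 17.7 ± 9.58 times treated. Its level was 65.8 ± 8.0 and 65.1 ± 12.7 CPM, with a log2 fold change of -0.02 ± 0.22 whose sign turns under upper-quartile scaling.

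The scaffold eIF4G links the cap to the ribosome, and Eif4g2, which encodes a relative lacking the eIF4E-binding part (DAP5), was the most abundant of the family. It was measured at 1829, 1548 and 1568 CPM untreated and 1623, 1431 and 1611 CPM treated, overlapping groups with a log2 fold change of -0.08 ± 0.13. Per kb it exceeded Eif4g1 by 5.99 ± 0.822 times untreated and 6.23 ± 0.557 times treated. Eif4g1 and Eif4g3 themselves stood at -0.13 ± 0.16 and -0.0034 ± 0.17.

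The eIF4A helicases unwind the leader, helped by eIF4B and eIF4H. Eif4a1 was at 161, 211 and 182 CPM untreated and 187, 185 and 198 CPM treated. Eif4a2 was at 335, 191 and 203 CPM untreated and 279, 274 and 276 CPM treated, so untreated library 1 stood apart. Their log2 fold changes were 0.04 ± 0.16 and 0.18 ± 0.18, and both rest on untreated library 1. Without it, Eif4a1 turned to -0.05 and Eif4a2 stood at 0.49 without overlap between groups (unadjusted p = 0.00222, edgeR adjusted p = 0.25). The ratio of Eif4a2 to Eif4a1 per kb was 1.23 in untreated library 1 and 0.537 to 0.882 in the other libraries. Of the 50-base stretches of Eif4a1 65.3% occur in other genes, chiefly the pseudogene Eif4a-ps4, so its level is uncertain. Eif4b and Eif4h stood at 0.09 ± 0.17 and -0.09 ± 0.19.

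Eif5 and Eif5b, which act at the start codon and in subunit joining, were both lower on average. Eif5 was at 753, 449 and 501 CPM untreated and at 517, 436 and 488 CPM treated. Untreated library 1 stood far above the others, and the log2 fold change was -0.24 ± 0.17 with it (edgeR adjusted p = 0.739) and 0.01 without it. Eif5b was at 222.5, 213 and 214 CPM untreated and at 213, 145 and 181 CPM treated, where anti-PD-1 library 4 nearly met the untreated range (-0.27 ± 0.17, edgeR adjusted p = 0.704). Eif5a, which helps ribosomes past difficult peptide bonds and is known more for elongation, exceeded its paralog Eif5a2 per kb 6.5 ± 0.572 times untreated and 5.93 ± 3.27 times treated. Their log2 fold changes were -0.14 ± 0.21 and 0.12 ± 0.25.

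Eif6, which keeps the large subunit from joining too early, was at 12.2, 31.3 and 19.2 CPM untreated and at 15.9, 22.1 and 21.8 CPM treated. Its groups overlap fully, and the log2 fold change of -0.05 ± 0.37 has an interval from -0.82 to 0.71, so its precision allows a difference of 1.5-fold in either direction.

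Libraries of the same group differed from each other across the set. Of the 54 genes, 20 were lowest in anti-PD-1 library 5, or 37.0%, against 17.2% of all tested genes, and its median deviation from the mean of the 6 libraries was -0.16 (log2). Untreated library 1 was the highest library for 16 of the genes, or 29.6%, against 26.0% of all tested genes. The highest median deviation was that of untreated library 3, at 0.13, followed by anti-PD-1 library 6 at 0.09, so the order of the libraries did not follow treatment. Leaving out anti-PD-1 library 5 left Eif1a and Eif2a at an unadjusted p under 0.05 but not Eif2s2, whose log2 fold change became -0.52 (unadjusted p = 0.0858).

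**Figure D4:**
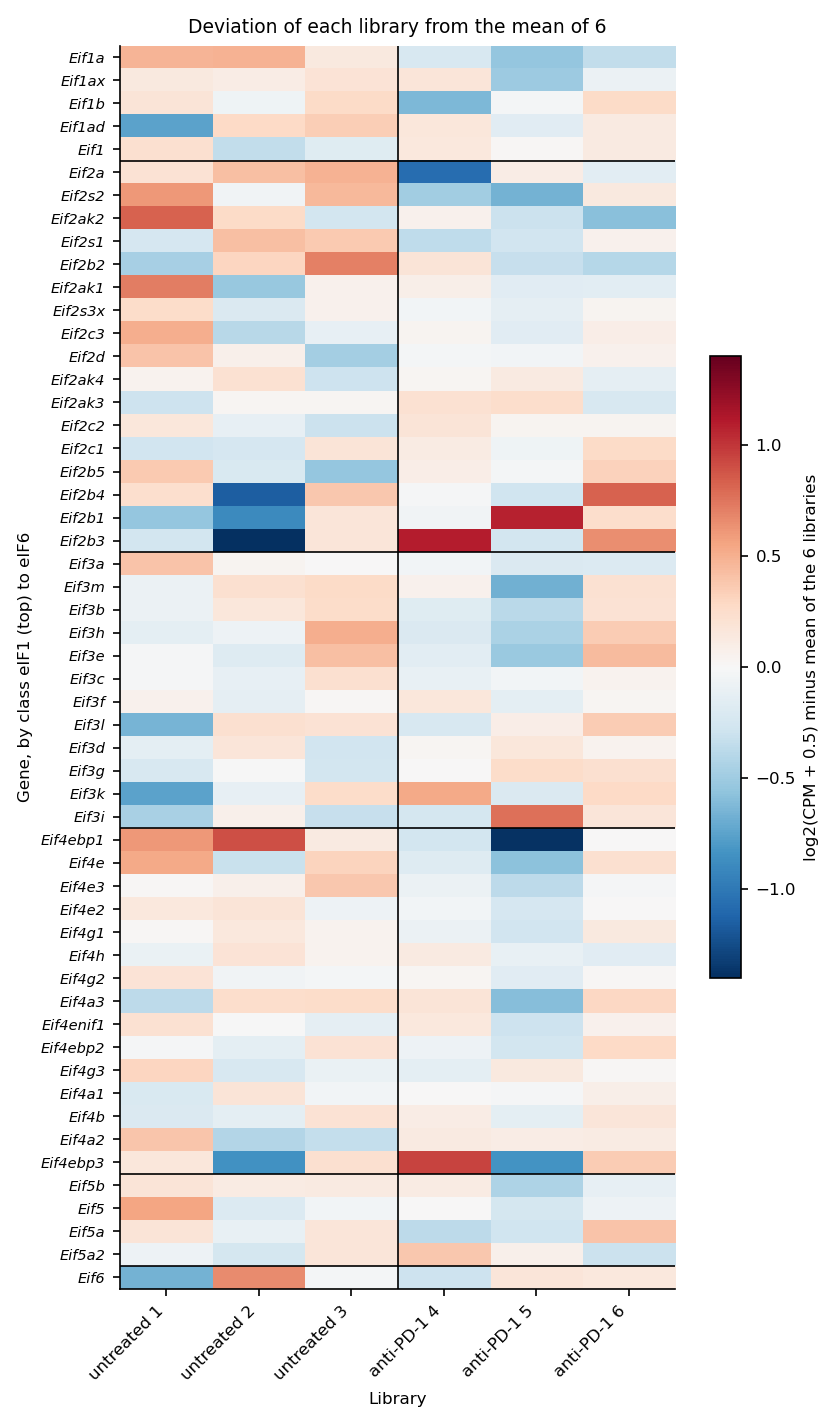
Deviation of each library from the mean of the 6, on the scale log2(CPM + 0.5), for the 54 tested genes (rows, by class) and the 6 libraries (columns); red is above and blue below that mean. Anti-PD-1 library 5 is blue in many rows and is the lowest library for 20 genes, while Eif2b3, Eif4ebp1 and Eif2a hold some of the deepest cells.

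What the genes share in sequence was read from their promoters, the 250 bases before each start that RefSeq lists (GRCm38.p6), found for 43 of the 54 tested genes. Eif1a is not among the 43. The E-box CACGTG, which reads the same on both strands and is bound by MYC and related factors, occurs in 9 of the 43, or 20.9%. Of 7682 tested genes with a listed promoter, 805 hold it, or 10.5%, and of all 27018 listed genes 6.86%. The 9 are Eif1b, Eif3f, Eif3k, Eif4a1, Eif4e, Eif4g1, Eif4h, Eif5a and Eif5a2. The 46 members with a listed promoter, tested or not, had a median of 61.6% G and C there, against 52.0% for all listed genes. For tested genes alone this median was not computed. A match is a description and shows neither binding nor a function. The E-box, in capitals, is shown with 20 bases on either side, on the strand of the gene, for all but Eif1b, whose start is nearer, as an example of an element that several members share; the ETS core, given below, was also more frequent than in the table. Eif4e, Eif5a and Eif5a2 hold 2 separate E-boxes each, of which 1 is shown.
Eif3f, chr7:108934327-108934372, plus strand: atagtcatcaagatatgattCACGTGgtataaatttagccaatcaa
Eif3k, chr7:28981907-28981952, minus strand: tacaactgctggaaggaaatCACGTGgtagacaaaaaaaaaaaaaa
Eif4a1, chr11:69672587-69672632, minus strand: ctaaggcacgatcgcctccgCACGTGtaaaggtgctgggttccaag
Eif4e, chr3:138527184-138527229, plus strand: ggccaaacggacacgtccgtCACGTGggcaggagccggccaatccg
Eif4g1, chr16:20672653-20672698, plus strand: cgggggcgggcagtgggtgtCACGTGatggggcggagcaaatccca
Eif4h, chr5:134639480-134639525, minus strand: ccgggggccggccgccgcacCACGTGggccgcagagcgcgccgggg
Eif5a, chr11:69921435-69921480, minus strand: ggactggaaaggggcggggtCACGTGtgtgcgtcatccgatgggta
Eif5a2, chr3:28781115-28781160, plus strand: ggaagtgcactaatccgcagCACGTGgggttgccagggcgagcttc

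The Eif4e and Eif5a windows lie between exons that the count table lists for these genes, which have more than 1 start. The bases beside CACGTG vary, and those of Eif3f and Eif3k are rich in A and T. Genes with the E-box did not stand apart in the comparison. The 9 had a median log2 fold change of -0.09, from -0.36 to 0.39, with 5 below 0 and none at an unadjusted p under 0.05. The 34 without it had a median of -0.05, from -0.67 to 0.88, with 2 at such a p. The ETS core CCGGAAGT, searched on both strands, occurs in 5 of the 43, or 11.6%, against 7.6% of tested genes. Over all listed genes it occurs in 10.9% of 46 members against 3.23%, where the E-box has 19.6% against 6.86%. The other motifs occur in shares of the 43 tested members near or below those of tested genes: CCAAT in 34.9% against 41.3%, TATAAA in 6.98% against 7.42%, the NRF1 core in 2.33% against 2.16% and the ATF4 element TGATGNAA in 2.33% against 2.27%.

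Of the 3 genes at an unadjusted p under 0.05, Eif1a had no listed promoter and was not searched. The promoter of Eif2s2 is shown, as 250 bases that end where the gene starts in the count table. It holds none of these motifs and is 51.6% G and C.
Eif2s2, chr2:154892907-154893156, minus strand: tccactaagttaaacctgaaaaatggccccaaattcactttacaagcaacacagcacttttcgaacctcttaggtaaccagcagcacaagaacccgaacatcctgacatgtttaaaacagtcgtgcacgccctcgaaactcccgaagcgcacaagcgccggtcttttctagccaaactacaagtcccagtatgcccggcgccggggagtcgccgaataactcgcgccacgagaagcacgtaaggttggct

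Genes that work beside the initiation factors were followed in 7 lists of 113 genes, of which 107 were tested. None passed after adjustment, and 57 of 107 were below 0, where 49.9% of all tested genes were. Their median log2 fold change was -0.03. At an unadjusted p under 0.05, 2 lay higher and 3 lower, where 4.23% and 4.07% of all tested genes did. The groups did not overlap for 11 of the 107, where 13.6% of all tested genes did not. Neither the counts at such a p nor the count without overlap is above its background share.

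Of the other regulators of initiation, 11 of 16 were below 0, with a median of -0.07. Denr, whose protein recycles ribosomes and restarts them after short upstream reading frames, was at 83.1, 50.4 and 50.6 CPM untreated and at 47.8, 38.1 and 38.7 CPM treated. All treated libraries were lower, and the log2 fold change was -0.57 ± 0.25 (edgeR adjusted p = 0.565). Ncbp2, the cap-binding protein of the nucleus, stood at -0.72 ± 0.37, and Ddx3x, a helicase of structured leaders, at -0.30 ± 0.17.

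The poly(A)-binding proteins and partners were evenly divided, 5 above and 5 below 0. Larp4b, which binds mRNA with PABP, was at 151, 115 and 122 CPM untreated and at 95.9, 94.8 and 96.6 CPM treated, without overlap (-0.44 ± 0.18, edgeR adjusted p = 0.551). Its relative Larp4 stood at -0.36 ± 0.18, Pabpn1 at 0.36 ± 0.27, and Pabpc1, the main cytoplasmic poly(A)-binding protein, at -0.10 ± 0.15.

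Genes of the integrated stress response, which reads out phosphorylated eIF2, were above 0 in 10 of 14 tested, with a median of 0.22. Atf4, the transcription factor translated when eIF2 is limiting, was at 120, 88.6 and 103 CPM untreated and at 127, 129 and 153 CPM treated. All treated libraries were higher, with a log2 fold change of 0.39 ± 0.18 (edgeR adjusted p = 0.580). Ppp1r15a, which directs the removal of phosphate from eIF2, was at 309, 364 and 350 CPM and 443, 414 and 394 CPM, also without overlap (0.29 ± 0.14, edgeR adjusted p = 0.607). Slc7a5, an amino acid carrier, stood at 0.36 ± 0.24, and Ddit3, a later target, at 0.19 ± 0.33. The 4 genes below 0 were Shmt2 at -0.50 ± 0.45, Psat1 at -0.34 ± 0.32, Cebpb at -0.27 ± 0.27 and Ppp1r15b at -0.17 ± 0.17. Atf5, Trib3, Chac1 and Slc7a11 did not pass the filter on low counts. ATF4 is made chiefly under translational control, which RNA counts do not measure. The stress list of tissue dissociation moved in the same libraries, as given above, and its part in these values was not tested.

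Genes of cap-binding control by mTORC1 and MNK were above 0 in 9 of 12 tested, with a median of 0.09. Mtor itself was at 50.2 ± 11.2 and 51.0 ± 9.79 CPM (0.02 ± 0.24), and Mknk1, a kinase of eIF4E, at 10.2 ± 2.33 and 15.4 ± 0.690 CPM (0.58 ± 0.41). Mlst8 and Rps6kb2, at 0.78 ± 0.75 and 0.53 ± 0.61, are low genes with wide intervals.

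The elongation, termination and recycling factors had 8 of 14 below 0 and a median of -0.06. Eef1a1 and Eef2, which deliver tRNA to and move the elongating ribosome, stood at 0.04 ± 0.13 and 0.11 ± 0.14. Eef1e1 was lower in every treated library, at -0.60 ± 0.35, Abce1, the recycling ATPase, stood at -0.35 ± 0.21, and Eef2k, the kinase that slows eEF2, at 0.70 ± 0.45. The list of cytosolic tRNA synthetases has 22 genes, Aimp1 and Aimp2 among them, which are not synthetases. Of the 22, 13 were below 0, with a median of -0.06, including Dars and Gars at -0.31 ± 0.20 and -0.29 ± 0.20. Aimp2, a scaffold of the synthetase complex, stood at 1.10 ± 0.60.

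The list of MYC and ribosome biogenesis had 13 of 19 tested below 0, a median of -0.13 and 1 gene at an unadjusted p under 0.05 in each direction. Bop1, a factor of large-subunit assembly, was at 10.2, 15.4 and 8.94 CPM untreated and at 23.9, 28.1 and 29.1 CPM treated. The groups are well apart, with a log2 fold change of 1.24 ± 0.36 (edgeR adjusted p = 0.383). Wdr12, its partner in the same assembly complex, was at 7.84, 9.47 and 12.0 CPM and 0.758, 2.69 and 9.07 CPM, so the pair had differences of opposite sign (-1.25 ± 0.62, edgeR adjusted p = 0.607). Wdr12 is a low gene, and its groups overlap. Pes1, also on this list, stood at 0.53 ± 0.40 with overlapping groups. Mxi1, an antagonist of MYC, stood at -0.63 ± 0.21 (edgeR adjusted p = 0.459) with overlapping groups, and Myc at -0.22 ± 0.30.

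**Figure D5:**
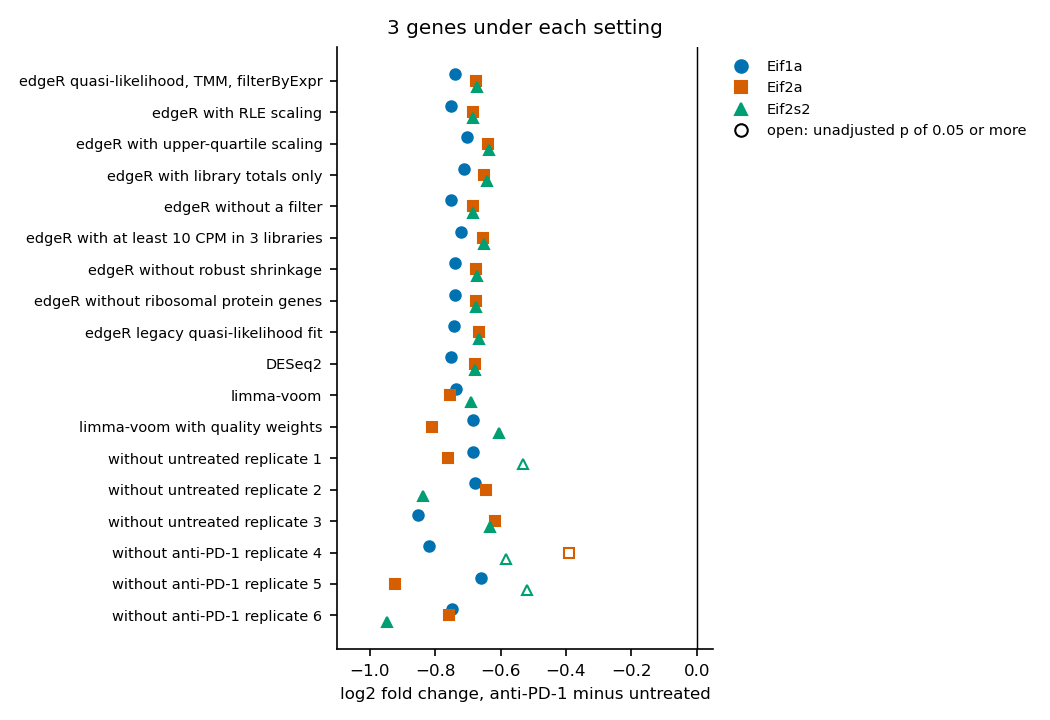
Log2 fold change (anti-PD-1 minus untreated) of Eif1a, Eif2a and Eif2s2 under the reported edgeR fit (top) and 17 alternatives; open symbols have an unadjusted p of 0.05 or more. All symbols lie below 0, Eif1a is filled in 17 of 17 alternatives, Eif2a in 16 and Eif2s2 in 14.

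Under 17 alternative settings, 11 of test, scaling or filter and 6 that each leave out a library, Eif1a kept an unadjusted p under 0.05 in 17, with log2 fold changes from -0.85 to -0.66. Eif2a kept such a p in 16, all but the setting without anti-PD-1 library 4. Eif2s2 kept it in 14, and lost it without untreated library 1 or without anti-PD-1 library 4 or 5. Eif3a came under 0.05 in 7. With 1 library left out, Eif1, Eif2ak2, Eif2b1, Eif2s1, Eif3i, Eif3k, Eif4a2, Eif4e, Eif5 and Eif5b also came under 0.05 at least once. Whichever library was left out, none of the 54 genes passed after adjustment by edgeR.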

How the data were processed

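The authors deposited raw counts per gene, made with featureCounts 1.5.2 in paired, stranded mode (setting 1) on a UCSC mm10 annotation, per the file headers. The submitters' processing notes list bcl2fastq, FastQC and DESeq2 too. The handling of duplicate or multiply mapped reads is not stated. 1 column without a name was not used.

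Genes passed edgeR 4.0.16's filterByExpr (count of 10, total of 15), which kept 99.8% of counts. Libraries were scaled by TMM and compared by the robust quasi-likelihood test, two-sided, with Benjamini-Hochberg adjustment at 0.05. SEs and 95% intervals come from that fit. A chi-square of 9.71 to 30.8 per degree of freedom between libraries showed no copies. The code was tested on simulated data. Shared 50-base stretches were counted in GENCODE M21 transcripts.

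The genes and lists were chosen with earlier results of these data known. The naming rule takes Eif1a, genes at an unadjusted p under 0.05, the highest gene per kb of each class, the next smallest p-values up to 20, paralogs and up to 3 genes per list. Other genes named, and the choice of 12 genes drawn as CPM, followed a look at their values. Of 184 list entries 2 matched by a synonym and 1 did not match. Alternatives were DESeq2 1.42.0, limma-voom (limma 3.58.1), other scalings and filters, and leaving out each library. The legacy fit of edgeR was added after seeing the data.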

Additional observations from a re-analysis of the deposited data

How the results depend on the processing

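No paired analysis was possible because the groups share no replicate numbers. The count of genes called over the whole table, 3, was 5 with upper-quartile scaling, 7 with library totals only, 52 without a filter, 5 without robust shrinkage, 6 without ribosomal protein genes, 34 with DESeq2, 5 with limma-voom, 13 with quality weights, and 1 to 19 with a library left out (19 with untreated library 1 out, 6 with untreated library 2 out, 5 with untreated library 3 or anti-PD-1 library 6 out, 1 with anti-PD-1 library 5 out). Initiation factor genes passing stayed at 0 except with DESeq2, where Eif1a (log2 fold change -0.753) made it 1. The number at an unadjusted p under 0.05, 3, was 4 with RLE scaling, without ribosomal protein genes, with DESeq2 and with limma-voom. It was 5 without a filter and 5 with quality weights. With a library left out it was 3 to 7 (5, 6 and 7 without untreated libraries 1, 2 and 3, and 5 without anti-PD-1 library 4). The median log2 fold change of the set moved by less than 0.106, the SD within groups of the libraries' median deviations. That SD is larger than the median itself, -0.06, so this does not show that its sign held.

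Of 53 other named genes, 41 kept their direction everywhere and none was called. Eif6 turned to 0.0394 with limma-voom. Eif4ebp2 turned to 0.018 with upper-quartile scaling, 0.00878 with library totals only and 0.00194 with a filter of 10 CPM in 3 libraries. With a library left out, log2 fold changes that turned ran from -0.0356 to 0.112 (Eif3f), -0.38 to 0.0139 (Eif5), -0.339 to 0.351 (Eif6), -0.0493 to 0.153 (Eif4a1), -0.178 to 0.0955 (Eif4ebp2), -0.414 to 0.00781 (Eif5a), -0.0686 to 0.279 (Eif5a2), -0.201 to 0.0221 (Eif2s3x), -0.0897 to 0.859 (Rps6kb2), -0.148 to 0.172 (Mtor), -0.0441 to 0.111 (Eef1a1) and -0.237 to 0.024 (Pabpc1). The cause was not tested. In every fit, also where an arm has 2 libraries, edgeR draws the spread of each gene toward a trend over all genes. Depth limits the low genes: Eif2b3, Eif2b4, Eif4ebp1 and Eif4ebp3 have intervals wider than 2 (log2).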
